A study of Rattus norvegicus with 3 samples.

Results

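Immature CD4 thymocytes are T cell precursors that have passed positive selection in the thymus and have begun to express the CD4 lineage genes. They were taken from 1 droplet RNA library of thymocytes as the cells whose deposited label was Immature CD4-1 or Immature CD4-2. The 2 labels held 236 of 8546 annotated cells, or 2.76% (exact Clopper-Pearson interval 2.42 to 3.13), with 133 cells labelled CD4-1 and 103 labelled CD4-2. The thymus came from 8-week-old Lewis rats, an inbred strain, with no treatment or genetic change named in the labels, and the tissue was digested with collagenase D and DNase I to free its thymocytes. The series also holds a library of CD45-negative stromal cells, used here for a check of barcodes alone, and 1 Stereo-seq section of thymus, 10 µm thick, in which bins of tissue carry the same labels. Each group had 1 sample, and the number of animals behind it is not given in the sources used here. No test was run, no p-value is given, and every interval is a 95% interval for counting error only.

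In the thymus, double-positive (DP) cells carry both CD4 and CD8. Those whose T cell receptor (TCR) engages a peptide on a class II MHC molecule turn toward the CD4 lineage under the factors GATA3, TOX and ThPOK, while engagement of class I leads toward CD8. Selected cells move from cortex to medulla, where they meet self antigens, and then switch on KLF2 and its targets, which include the egress receptor S1PR1. The labels around these cells are DP-sig, the signalled DP stage before, Mature CD4 (2 labels pooled), the stage after, and Immature CD8 (2 labels pooled), the parallel lineage.

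All 236 labels were projected ones, and per the series' text the annotation used references built from the rat libraries with published mouse data. The labels therefore rest on the expression of these same cells, and the differences below describe them and do not test them. In the initial clustering 116 members lay in the cluster Early SP (single-positive), 118 in Mature SP and 2 in DP clusters. The members summed to 1583217 unique molecular identifiers (UMIs), 2.46% of the 64440495 in the library. Their median depth was 6398 UMIs and 2406.5 genes per cell, against 4010 UMIs in DP-sig, 8618.5 in Mature CD4 and 5338.5 in Immature CD8. Of the library's barcodes, 38 also occurred in the stromal library, and 1 of these was a member. Levels are given as CPM, the UMIs of a gene per 1000000 UMIs summed over the cells of a label, with exact Poisson intervals. A gene was measured in a comparison if its mean level over both sides was at least 50 CPM, and a ratio of at least 2 is called past 2-fold.

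The label was checked on Cd4, Zbtb7b and Cd40lg, which encode the co-receptor, the CD4 lineage factor ThPOK and CD40 ligand. Zbtb7b stood at 27.8 CPM (20.2 to 37.3) in immature CD4 cells, 21.6 in Mature CD4, 2.62 in Immature CD8 and 0.776 in DP-sig, where it had 1 UMI. Cd40lg stood at 113 CPM (97.1 to 131), against 126 in Mature CD4, 17.1 in Immature CD8 and 3.88 in DP-sig. Both genes were thus lower in the stage before and in the parallel lineage. A further CD4 label, intCD4 with 45 cells, is kept apart in the annotation. It stood at 34.7 CPM for Zbtb7b (16.7 to 63.9), 48.6 for Cd40lg (26.6 to 81.6) and 417 for Cd4. Cd4 itself differed less from Immature CD8: it was at 308 CPM in immature CD4 cells (281 to 336), 3.12 times DP-sig (2.56 to 3.82) but 1.38 times Immature CD8 (1.20 to 1.59), with 223 CPM there and 1350 CPM in DP cells. Without thinning, 30.1% of immature CD4 cells held a Cd40lg UMI, against 0.588% of the cells labelled B+myeloid, which should lack it, at median depths of 6398 and 11506.5 UMIs. With each cell thinned to 1000 UMIs these shares were 8.47% and 0, the latter in 162 cells that reached that depth.

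**Figure D1:**
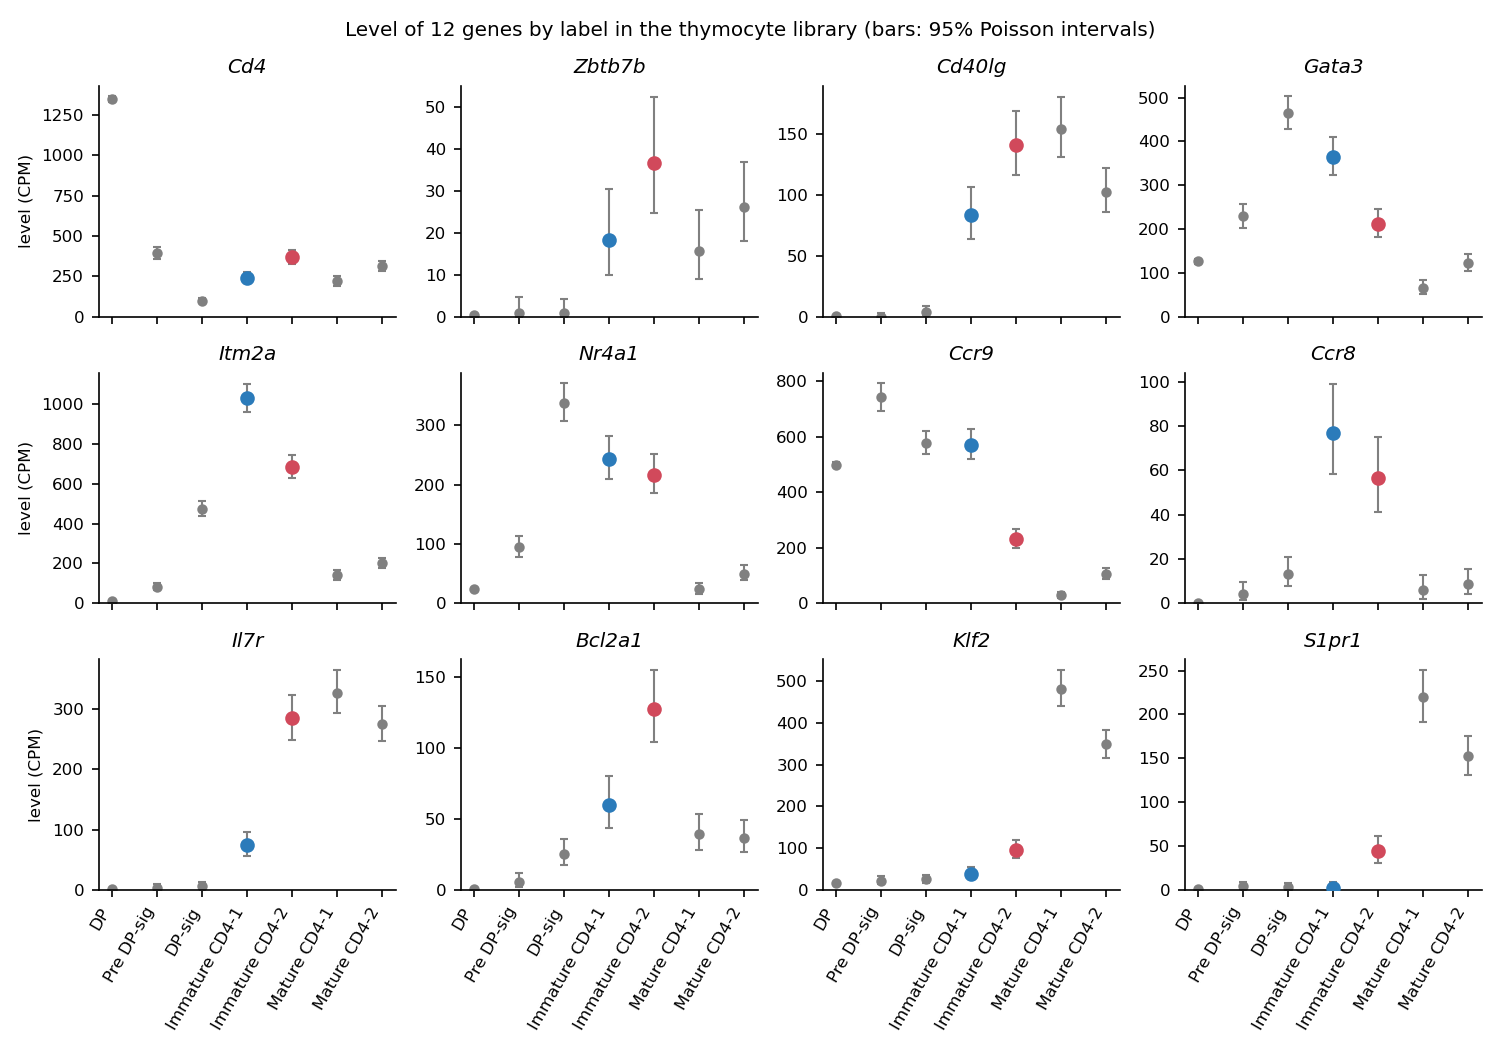
Level in CPM (y axes, from 0) of 12 genes in 7 labels of the thymocyte library (x axes), ordered from DP to Mature CD4, with 95% Poisson intervals. Immature CD4-1 is blue and CD4-2 is red. Gata3, Nr4a1 and Ccr9 are lower in CD4-2 than in CD4-1, Il7r, Klf2 and S1pr1 are higher, and Itm2a, Ccr8 and Bcl2a1 are highest in 1 of these 2 labels among the 7.

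Against DP-sig, immature CD4 cells had higher levels of Il7r, Cd40lg, Tnfrsf18 and B2m, and lower levels of Myb, Ikzf2, Thy1 and Cd200. Of 3498 genes measured, 52 were past 2-fold higher (1.49%) and 135 past 2-fold lower (3.86%), with a median log2 ratio of -0.13 over all of them. Il7r, the receptor chain for the survival cytokine IL-7, was at 183 CPM against 6.99, a ratio of 26.1 (13.6 to 57.7). Tnfrsf18, which encodes the TNF receptor GITR, was at 89.1 against 20.2 CPM. B2m, the shared light chain of class I molecules, was at 1653 against 788 CPM, 2.10 times higher (1.95 to 2.26). As lists, cytokine receptors had 8 genes measured and 1 past 2-fold higher, and the DP programme 5 measured and 1 past 2-fold lower. The steepest ratios were those of 3 genes with other known roles. Mmp9, a secreted matrix protease, was at 124 CPM against 2.33, where it rested on 3 UMIs (ratio 53.4, 18.0 to 261). Slc4a4, a bicarbonate transporter, was at 196 against 4.66 CPM. Resp18, known from secretory granules of endocrine cells, was at 335 against 10.1 CPM.

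Among the genes lower than in DP-sig, Myb, a transcription factor of DP cells, stood at 174 against 1458 CPM and was 8.39-fold lower (7.39 to 9.56). Ikzf2, which encodes Helios and marks strongly signalled cells, stood at 130 against 1087 CPM, 8.35-fold lower (7.21 to 9.71). Cd200 stood at 63.2 against 541 CPM, Thy1 at 90.3 against 430, Lag3 at 46.7 against 195 and Bcl6 at 56.2 against 204. Gpc5, a cell-surface proteoglycan, had the steepest drop in level across this step, from 264 to 10.7 CPM. The strong-signal and agonist list, which holds genes of cells diverted by self antigen, had 3 of its 14 genes measured, 1 past 2-fold higher (Tnfrsf18) and 2 lower (Ikzf2, Lag3).

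Genes of the TCR response were at similar levels in immature CD4 and DP-sig cells. Of 19 genes of that list 10 were measured, 0 past 2-fold higher and 1 lower, with a median log2 ratio of -0.43 beside -0.13 for all genes. Nr4a1, an immediate target of TCR signals, was at 230 CPM against 338. Itm2a, which is switched on during positive selection, was 1.79 times higher (1.63 to 1.97), at 850 against 474 CPM. Within the lineage factors, Gata3 was at 286 against 465 CPM and Tox at 1974 against 3352 CPM. Of the 10 measured genes of that list 2 were past 2-fold higher, namely Cd4 and Cd40lg, and 2 lower, Myb and Tcf7. The 14 genes of the TCR complex and its proximal kinases were all measured, and none was past 2-fold in either direction; Cd3e, a chain of the complex, was at 910 against 1132 CPM and Zap70 at 108 against 132 CPM.

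Against Mature CD4, the order turned around: signal response genes were higher in immature CD4 cells and genes of late maturation were lower. Of 3261 genes measured, 68 were past 2-fold higher (2.09%) and 73 lower (2.24%), with a median log2 ratio of 0.20. Of 9 measured TCR response genes 5 were past 2-fold higher and 0 lower, with a median of 1.38. Nr4a1 was at 230 against 38.3 CPM, a ratio with an interval of 4.74 to 7.67, and Nab2, a co-repressor induced by EGR factors, 4.33 times higher at 166 CPM. Itm2a was at 850 against 174 CPM. Tox2, a relative of Tox, had the largest ratio at 17.5 (11.3 to 28.4), with 170 CPM against 9.69. Gata3 was 2.94 times higher (2.50 to 3.47) and Tox 2.28 times. Chemokine genes belonged to this set too, with Ccl4 at 606 against 88.1 CPM. Ccr9, the receptor for the thymic chemokine CCL25, was at 396 CPM against 71.8.

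The late maturation and egress list had 11 genes measured against Mature CD4, 0 past 2-fold higher and 5 lower. S1pr1, the egress receptor, was at 24.0 CPM in immature CD4 cells against 182 CPM. Klf2, the factor that controls it, was 5.98-fold lower at 68.2 against 408 CPM, and Foxo1, which acts above Klf2, was at 66.3 against 256 CPM. Il7r was not among the 5, since its 183 CPM lay within 2-fold of the 298 CPM in Mature CD4. Among interferon-stimulated genes 3 were measured, and Mx1, an antiviral GTPase, was 10.8-fold lower (6.69 to 18.4) at 11.4 against 122 CPM. B2m was 2.07-fold lower than in Mature CD4.

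The size and split of these counts moved with the scaling. With ratios centred on their median, 60 genes were past 2-fold higher and 95 lower than in DP-sig, and 37 higher and 107 lower than in Mature CD4. With totals that leave out mitochondrial, ribosomal and haemoglobin genes, the counts were 98 and 121 against DP-sig and 60 and 130 against Mature CD4. The median log2 ratio of all genes was then -0.02 and 0.07.

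Past 2-fold higher were 1.49% of measured genes against DP-sig and 2.09% against Mature CD4. Among genes measured in both comparisons, 4 were past 2-fold higher in both, and none was lower in both. They were Mmp9, Resp18, Bcl2a1 and Sema4a, of which the last was named after its values were seen. Bcl2a1, a survival gene of the BCL2 family, was at 94.7 CPM, 3.70 times DP-sig (2.52 to 5.57) and 2.50 times Mature CD4 (1.91 to 3.30). Sema4a, a semaphorin, was at 107 CPM, 2.16 times DP-sig and 2.03 times Mature CD4. Mmp9 and Resp18 were 3.87 and 3.98 times Mature CD4. Among the 21 labels of at least 20 cells, Resp18, Mmp9 and Sema4a were highest in CD4-2 and next highest in CD4-1. Bcl2a1 was instead highest in B+myeloid, at 540 CPM, and next in Treg, at 278 CPM. CD4-2 ranked 7 and CD4-1 ranked 11 for it. Bcl2, the founding survival gene of the BCL2 family, was highest in CD4-2 at 598 CPM and next in CD4-1 at 541.

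Chemokine receptors of medullary migration stood near the filter on level or below it. Ccr8 was at 66.3 CPM, against 13.2 in DP-sig and 7.49 in Mature CD4. Ccr4, a receptor for the medullary chemokines CCL17 and CCL22, was at 58.1 CPM, close to the 63.6 of DP-sig and 3.07 times the 18.9 of Mature CD4 (2.11 to 4.52). Ccr7, which also draws cells to the medulla, was at 22.1 CPM and lower than the 48.0 of Mature CD4.

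Against Immature CD8, few genes stood apart, TCR response and lineage genes among them. Of 3394 genes measured, 21 were past 2-fold higher (0.619%) and 6 lower (0.177%), with a median log2 ratio of 0.03. Of 9 measured TCR response genes 5 were past 2-fold higher, with a median of 1.07, and the values were 225 against 96.4 CPM for Cd5, a tuner of TCR signals, and 230 against 108 CPM for Nr4a1. Egr1 was 2.58 times higher, Nab2 2.32 times and Id3 2.09 times. Gata3 was 2.24 times higher (1.89 to 2.66), while Tox was at 1974 and 1981 CPM. Outside these lists Resp18 was 10.0 times higher (7.50 to 13.6), Hivep3, a zinc finger factor, 6.85 times, and Slc4a4 4.75 times. Among the 21 labels, though, Slc4a4 was highest in Mature CD8-2, at 698 CPM, and next in CD4-2, at 314 CPM.

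On the other side, Cd8a was 2.93-fold lower (2.55 to 3.37) in immature CD4 cells, at 172 against 505 CPM. Runx3, the CD8 lineage factor, fell just short of 2-fold at 86.5 against 170 CPM, as did Cd8b at 75.2 against 142 CPM. Lypd6 had the steepest ratio, with 27.8 against 95.7 CPM. These values include the cells with Rag1 described below. In cells with fewer than 2 Rag1 UMIs, Cd8b was at 41.1 against 141 CPM and Cd8a at 128 against 502 CPM.

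The 2 immature CD4 labels differed in depth, cluster and expression. CD4-1 had a median of 5361 UMIs and 2197 genes per cell, and CD4-2 of 7312 UMIs and 2617 genes. The deepest CD4-2 barcode held 42603 UMIs, where the third quartile was 8843, so it weighs more than other cells in the summed levels. Without cells at or above the 99th percentile of UMIs of their label, 3406 genes were measured. Of these, 31 were past 2-fold higher in CD4-1 (0.910%) and 43 in CD4-2 (1.26%). Thinned to 1000 UMIs, the medians were 656 and 640 genes. The median share of mitochondrial UMIs was 3.73% and 3.76%. Most CD4-1 cells lay in the Early SP cluster (96 of 133) and most CD4-2 cells in Mature SP (83 of 103), which leaves 35 CD4-1 cells in Mature SP and 20 CD4-2 cells in Early SP.

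Ccl3, Ccl4 and Ccr9 were higher in CD4-1, and Il7r, Klf2 and the measured RT1 class I genes were higher in CD4-2. Of 3421 genes measured, 29 were past 2-fold higher in CD4-1 (0.848%) and 42 past 2-fold higher in CD4-2 (1.23%), with a median log2 ratio of CD4-1 over CD4-2 of 0.09. With ratios centred on their median the counts were 21 and 54. Higher in CD4-1 were Ccl4 at 891 against 337 CPM, a ratio of 2.64 (2.30 to 3.05), and Ccl3 at 205 against 63.7 CPM, both chemokine genes. Ccr9 was at 571 against 232 CPM (ratio 2.46, 2.07 to 2.94) and Tox2 at 242 against 102 CPM (ratio 2.38, 1.83 to 3.12). Rgs2, a regulator of G protein signalling, was 3.11 times higher. Of 10 measured TCR response genes 1 was past 2-fold higher in CD4-1 and 0 in CD4-2, with a median of 0.43; the 1 was Dusp2, a phosphatase of MAP kinases, at 109 against 52.7 CPM. Gata3 and Tox stayed under 2-fold, at 365 against 212 CPM and 2574 against 1411 CPM.

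Higher in CD4-2 were Slc4a4, at 314 against 71.7 CPM, and Il7r, at 284 against 74.3 CPM (3.83-fold, 2.85 to 5.21). Klf2 was at 95.6 against 39.1 CPM and Foxo1 at 93.2 against 37.8 CPM. S1pr1, below the filter, had 36 UMIs in CD4-2 (44.1 CPM) and 2 UMIs in CD4-1. Of 10 measured genes of late maturation and egress, 4 were past 2-fold higher in CD4-2 and 0 in CD4-1. Fewer were past it within a cluster, 0 of 5 in Early SP, where 1 was past 2-fold higher in CD4-1, and 2 of 11 in Mature SP. In Klf2 CD4-2 was still far from Mature CD4, whose level was 408 CPM, whereas in Il7r it had come close to the 298 CPM there.

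**Figure D2:**
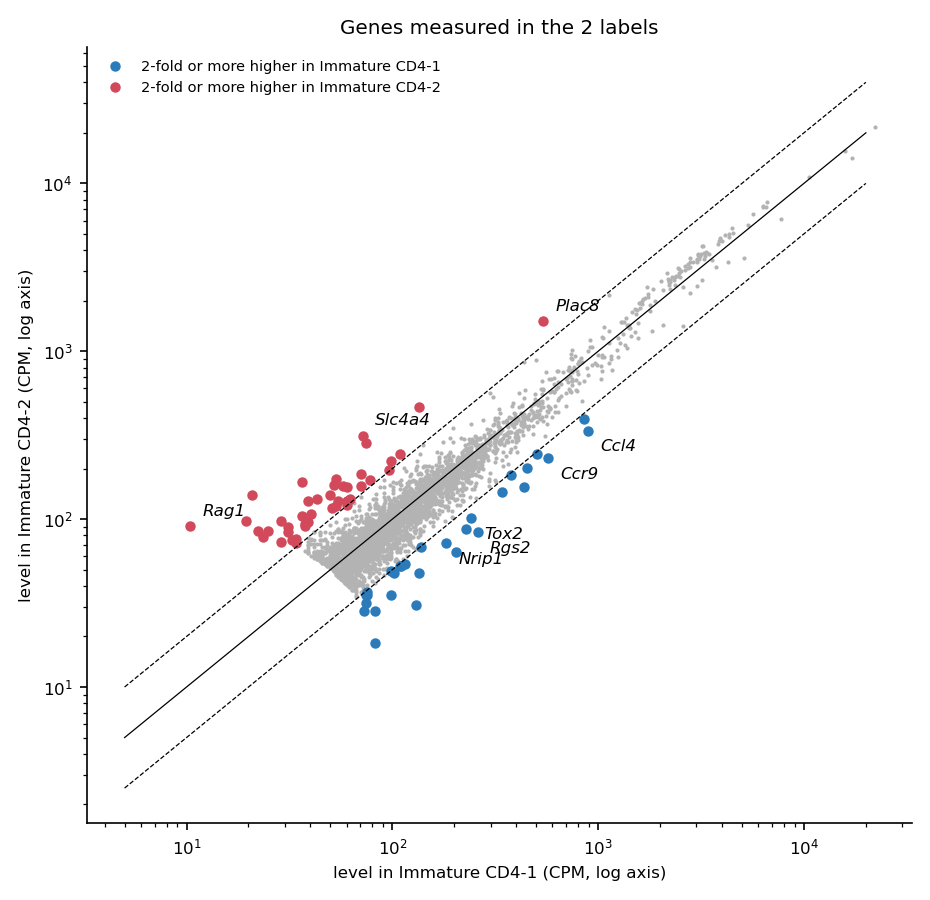
Level of each of the 3421 measured genes in Immature CD4-1 (x axis) and Immature CD4-2 (y axis), both in CPM on log axes. The solid line marks equal levels and the dashed lines 2-fold differences; the 29 genes higher in CD4-1 are blue and the 42 higher in CD4-2 are red.

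The genes that separated the 2 labels were also set beside DP-sig and Mature CD4, cells that took no part in choosing them. Of the 42 genes past 2-fold higher in CD4-2, 41 were higher in Mature CD4 than in DP-sig, and 33 of these by 2-fold or more. Of the 29 genes past 2-fold higher in CD4-1, 27 were lower in Mature CD4 than in DP-sig, and 20 of these by 2-fold or more. Among all 3421 measured genes, 25.5% were higher in Mature CD4 and 74.5% lower. The median log2 ratio of Mature CD4 over DP-sig was 2.21 for the first set and -2.06 for the second, beside -0.33 for all genes. The labels of all 4 groups came from 1 annotation of 1 library.

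Class I genes formed a group among those higher in CD4-2. All 6 measured RT1 genes, the rat MHC genes, were past 2-fold higher in CD4-2, with a median log2 ratio of CD4-1 over CD4-2 of -1.36 beside 0.09 for all genes. Within the Mature SP cluster all 8 measured RT1 genes were again higher in CD4-2, but 1 of them was past 2-fold, with a median of -0.80. Within Early SP 2 were measured, both higher in CD4-2 and 1 past 2-fold. RT1-A3 was at 127 against 39.1 CPM (3.26-fold, 2.15 to 5.07), RT1-CE5 at 222 against 99.03 CPM (2.24-fold, 1.70 to 2.97) and RT1-CE4 at 84.6 against 22.2 CPM. B2m was 1.91-fold higher in CD4-2 (1.76 to 2.08), at 2150 against 1125 CPM, and Psmb9, a subunit of the immunoproteasome that cuts peptides for class I, 2.58-fold at 154 against 59.9 CPM. Of 8 RT1 genes measured against Mature CD4, none was above it and 5 were past 2-fold lower in immature CD4 cells. Yet among the 21 labels RT1-CE5 and RT1-S3 were highest in DP, at 1071 and 270 CPM. RT1-A3, RT1-CE4 and RT1-T24-4 were highest in Treg, and RT1-CE16 in B+myeloid. The CD4-2 values include the cells with Rag1 described below. RT1 genes have near-identical copies, so reads could be split between them or dropped in counting, and the single RT1 values are uncertain.

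Genes of the TNF family and of NF-kB, the factor that its receptors activate, leaned the same way. Of 17 genes on that list 5 were measured, 2 past 2-fold higher in CD4-2 and 0 in CD4-1, with a median of -0.94. Ltb, a TNF-family ligand that acts on medullary epithelium, was at 186 against 70.4 CPM (2.65-fold, 1.93 to 3.68). Nfkbia, the inhibitor that NF-kB itself induces, was at 121 against 59.9 CPM, Nfkb1 at 348 against 197 CPM and Rel at 135 against 70.4 CPM. Below the filter, Tnfsf11, which encodes RANKL, a signal for medullary epithelium, was at 69.9 against 23.5 CPM. Tnfrsf4, the receptor OX40, was at 73.5 against 13.0 CPM, and Tnfrsf18 at 132 against 43.0 CPM.

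Promoters were then read for the genes past 2-fold between the labels, from RefSeq sequences of build GRCr8 that span 250 bases before and 50 after the start site. The counts themselves were made on mRatBN7.2. Of 42 genes higher in CD4-2, 33 had such a sequence, and 7 of these (21.2%) held the kappa B consensus, the binding motif of NF-kB, on either strand. Its letters are GGGRNWYYCC, where R is A or G, N any base, W A or T, and Y C or T. The consensus was held by 2 of 18 promoters of genes higher in CD4-1 (11.1%), those of Ust and Cep112, whose matches are not shown. It was held by 4.10% of 2828 promoters of measured genes and by 4.16% of all 27457 promoters. For the interferon motif, GAAA and a second GAAA after 2 bases, the share was 1 of 33 (3.03%) beside 3.64% of measured genes, for the AP-1 motif TGANTCA 2 of 33 (6.06%) beside 3.93%, for the EGR motif GCGNGGGCG 3 of 33 (9.09%) beside 11.0%, and for the NR4A motif AAAGGTCA 1 of 33 (3.03%) beside 0.707%. The motifs were chosen after the gene values were seen, 4 of the 7 genes are RT1 genes of related sequence, and a match describes letters and not binding. The 7 stretches are shown on the gene's strand, 5′ to 3′, with the match in capitals, to give the letters that matched. The other promoters of the 33 held no match. Where 2 matches overlap, one on each strand, the capitals cover both.
Ltb, chr20:3634060-3634089, minus strand: tagggtgttcGGAAAGTCCCaggcagggga
Nfkbia, chr6:78597084-78597113, minus strand: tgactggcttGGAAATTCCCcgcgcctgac
Shisa5, chr8:118569863-118569893, plus strand: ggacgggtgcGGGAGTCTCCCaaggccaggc
RT1-A3, chr20:4849271-4849301, plus strand: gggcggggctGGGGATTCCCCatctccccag
RT1-CE16, chr20:3265554-3265584, minus strand: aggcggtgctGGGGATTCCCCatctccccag
RT1-CE4, chr20:3509330-3509360, minus strand: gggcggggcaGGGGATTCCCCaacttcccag
RT1-CE5, chr20:3484238-3484267, minus strand: gggcggagctGGAGATTCCCcatctcccct

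In Ltb and Nfkbia the match began 25 and 31 bases before the start site, and in the 4 RT1 genes between 131 and 194 bases before it. The 250 bases before the start site of RT1-CE5, the class I gene with most UMIs among the 4, and of Ltb show where in the promoter it lay.
RT1-CE5, chr20:3484091-3484340, minus strand: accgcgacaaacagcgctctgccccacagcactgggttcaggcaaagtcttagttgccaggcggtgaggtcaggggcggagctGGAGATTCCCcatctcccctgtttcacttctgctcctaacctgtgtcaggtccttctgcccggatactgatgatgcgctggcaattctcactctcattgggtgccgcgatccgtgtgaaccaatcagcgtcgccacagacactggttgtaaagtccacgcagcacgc
Ltb, chr20:3634055-3634304, minus strand: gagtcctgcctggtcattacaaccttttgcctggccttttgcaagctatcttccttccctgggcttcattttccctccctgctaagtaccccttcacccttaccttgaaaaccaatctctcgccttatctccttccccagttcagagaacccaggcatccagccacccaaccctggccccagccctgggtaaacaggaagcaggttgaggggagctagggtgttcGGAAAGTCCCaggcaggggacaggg

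Both labels occurred in both clusters, so they were also compared within each. In the Early SP cluster 28 of the 29 genes higher in CD4-1 kept that direction, as did 37 of the 42 higher in CD4-2. In the Mature SP cluster 29 and 42 did. Of all 3421 genes measured between the labels, 1832 were higher in CD4-1 and 1589 in CD4-2 within Early SP. Within Mature SP 1904 and 1517 were. Past 2-fold in the same direction were 14 and 21 of the 29 and 42 in Early SP, beside 193 and 98 of the 3421. In Mature SP 14 and 18 were, beside 37 and 72 of the 3421. Among genes measured within the cluster itself, 4.14% and 4.31% of 3480 were past 2-fold higher in CD4-1 and in CD4-2 in Early SP. In Mature SP 1.73% and 1.59% of 3403 were. The cells of each cluster are a subset of those that chose the genes. Within Mature SP, Il7r was at 326 CPM in CD4-2 and 171 in CD4-1, and Ccr9 at 188 and 366. Within Early SP, Ccl4 was at 1116 CPM in CD4-1 and 375 in CD4-2.

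Of the lineage markers, Cd40lg went with the cluster more than with the label, and Cd4 did not. Cd4 was at 369 CPM in CD4-2 and 242 in CD4-1 over all cells, and this direction did not change within either cluster. Cd40lg was at 141 CPM in CD4-2 and 83.4 in CD4-1 over all cells, but at 164 against 187 CPM within Mature SP and at 16.0 against 33.3 CPM within Early SP, the former on 2 UMIs. CD4-1 was then 1.14 times CD4-2 in Mature SP (0.795 to 1.62), an interval that includes 1. Zbtb7b, below the filter on level and on few UMIs, was at 37.7 CPM in CD4-2 and 47.8 in CD4-1 within Mature SP. Within Early SP it was higher in CD4-2, as it was over all cells. Gata3, by contrast, was higher in CD4-1 in both, at 347 against 136 CPM in Early SP and 386 against 226 CPM in Mature SP. The CD4-2 cells of Early SP summed to 125386 UMIs, so a level there below 23.9 CPM rests on fewer than 3 UMIs.

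**Figure D3:**
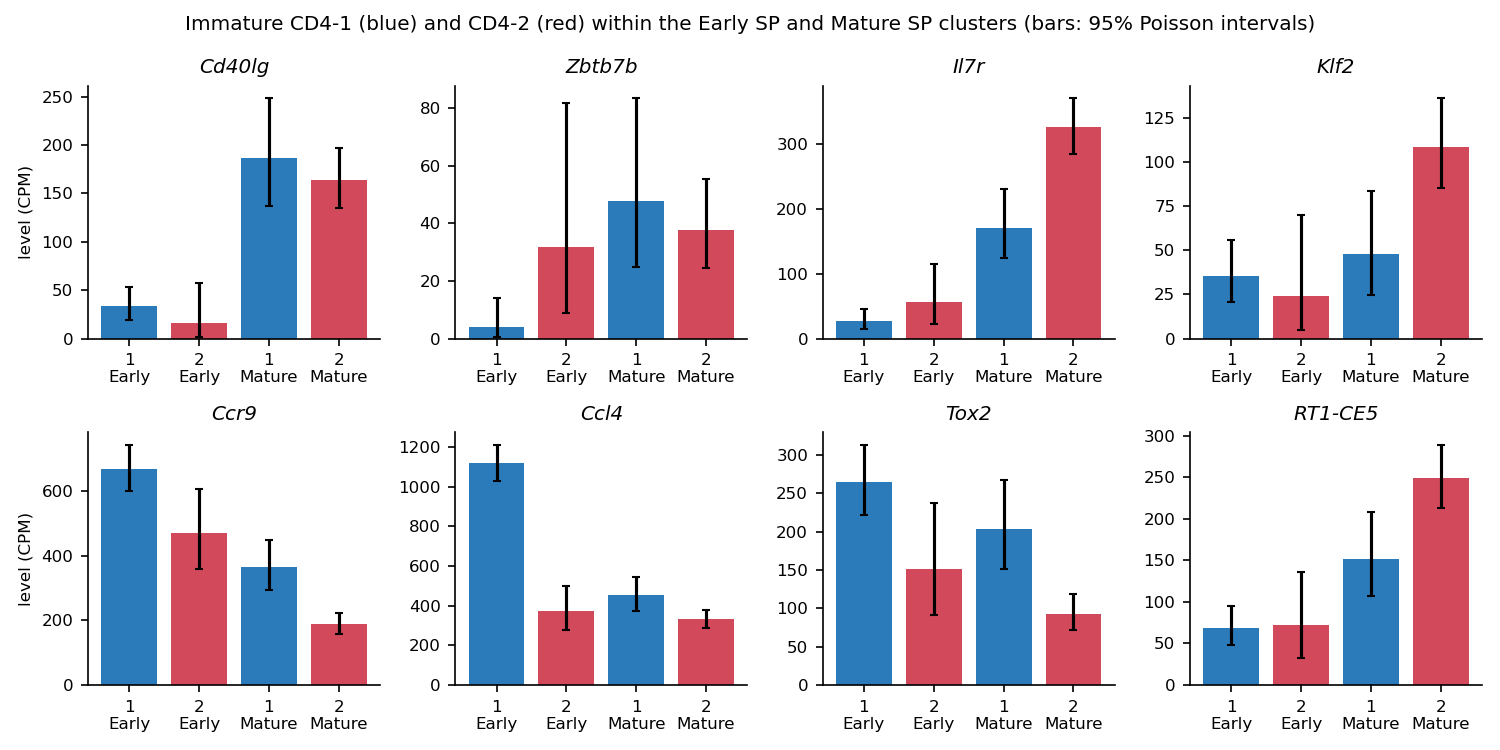
Level in CPM (y axes, from 0) of 8 genes in the 4 combinations of label and initial cluster (x axes; Early for Early SP, Mature for Mature SP), with 95% Poisson intervals. Cd40lg is higher in both labels of Mature SP than in both of Early SP, whereas Ccr9 and Tox2 are higher in CD4-1 within each cluster.

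A few CD4-2 cells carried genes of the DP stage. Rag1, the recombinase gene that DP cells express, had 74 UMIs in CD4-2 and 8 in CD4-1, and 72 of the 74 lay in 5 of 103 cells. Those 5 cells had a median of 10734 UMIs, against 7226.5 in the other CD4-2 cells. Their summed level of Cd8a was 825 CPM against 120, of Cd8b 610 against 46.7, of Thy1 723 against 27.5 and of Ptcra, the pre-TCR chain, 124 against 1.38. Without them Rag1 in CD4-2 was at 2.75 CPM. In Mature CD4-2, 30 of 127 cells held at least 2 Rag1 UMIs. No doublet caller was run, and whether these barcodes hold more than 1 cell was not tested. Without every cell of at least 2 Rag1 UMIs, 38 genes were past 2-fold higher in CD4-1 and 40 in CD4-2. Against Mature CD4, where 31 of 248 cells were left out by this, 99 were then higher and 83 lower, beside 68 and 73 with all cells.

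Markers of other cells were at or near 0 with 2 exceptions, Cd79a and Pecam1. Of 7 B cell markers 4 were at 0 in immature CD4 cells, Cd79b and Pax5 among them, but Cd79a was at 29.1 CPM. Cd79a stood at 2.61 CPM in CD4-1, 53.9 in CD4-2 and 155 in Mature CD4, and so moved with the maturation genes. It was highest in the labels Treg, at 445 CPM, and Pre-Treg, at 271 CPM. Without every cell that held a B cell or myeloid marker UMI, 32 genes were past 2-fold higher in CD4-1 and 40 in CD4-2. Against Mature CD4, cut from 248 to 137 cells, 76 were then higher and 82 lower. The summed level of the list was 30.9 CPM in immature CD4 cells, 0.776 in DP-sig and 158 in Mature CD4. Of 11 myeloid markers 6 were at 0 and the list summed to 7.58 CPM, against 10.9 in DP-sig and 7.49 in Mature CD4. Of 9 stromal markers 8 were at 0, and Pecam1, an adhesion molecule known from endothelium, was at 25.9 CPM, against 21.0 in DP-sig and 26.4 in Mature CD4. All 5 erythroid genes were at 0, as were 6 of the 7 genes found of the gamma-delta and innate list, Nkg7 among them. Foxp3, the factor of regulatory T cells, had 1 UMI. A count of 0 in the members allows a level of up to 1.89 CPM at 3 UMIs.

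**Figure D4:**
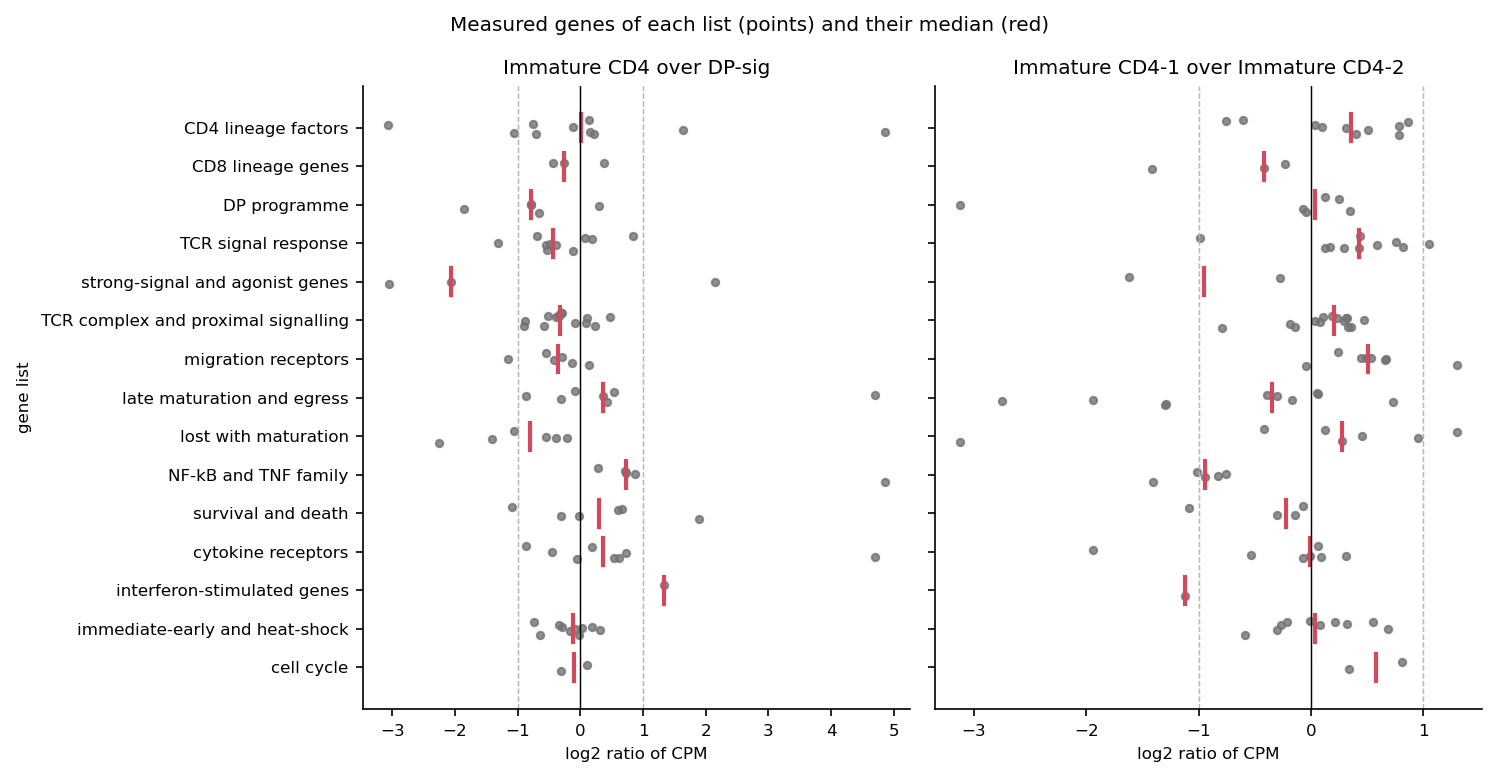
Log2 ratio of CPM (x axes) for the measured genes of 15 lists (y axis), as immature CD4 over DP-sig on the left and CD4-1 over CD4-2 on the right; each point is a gene, red bars are medians and dashed lines mark 2-fold. In the right panel the medians of the late maturation list and of the NF-kB and TNF family lie to the left of 0, and that of the TCR signal response to the right; the interferon-stimulated list has 1 measured gene there.

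Some other lists had few genes measured between the labels. The strong-signal and agonist list had 2 measured, of which Tnfrsf18 was past 2-fold higher in CD4-2, with a median log2 ratio of -0.95. The interferon-stimulated list had 1 measured, past 2-fold higher in CD4-2. Of 12 survival and death genes 4 were measured, and Bcl2a1 alone was past 2-fold, at 127 CPM in CD4-2 against 59.9 in CD4-1. The cell cycle list had 2 genes measured, with Stmn1 at 550 CPM in CD4-1 and 314 in CD4-2. Immediate-early and heat-shock genes, which can respond to tissue dissociation, had 10 measured, 0 past 2-fold and a median of 0.04. Of the CD8 lineage genes Cd8a was at 147 CPM in CD4-1 and 196 in CD4-2, and Cd8b at 40.4 and 108 CPM, values that include the 5 cells above.

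In the section, each bin of 10 µm carries up to 3 labels given by RCTD, a deconvolution method that weighs reference types in each bin. A bin can hold several cells or part of one, neighbouring bins share RNA, and no gene counts of the section were used, so the labels were not checked on markers there. An immature CD4 label came first in 7366 of 592087 labelled bins, 2822 for CD4-1 and 4544 for CD4-2. It made up 0.592% of bins in the region named capsular, 0.981% in cortex (0.951 to 1.01), 4.30% in mECA (4.10 to 4.50) and 4.61% in mEFA (4.32 to 4.92). mECA and mEFA are the deposited names of the 2 medullary regions and are not spelled out in the files; the series' title concerns epithelium-free areas. The share was thus over 4 times as high in either medullary region as in cortex.

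The 2 labels were placed differently. In the medulla lay 21.0% of CD4-1 bins and 44.6% of CD4-2 bins, between 8.90% for DP-sig and 62.4% for Mature CD4. The share of CD4-1 went from 0.464% of bins in cortex to 0.998% in the medulla, and that of CD4-2 from 0.517% to 3.40%. By distance, CD4-1 was densest at the border of the medulla. It made up 1.02% of bins 25 to 50 µm outside, 1.23% at 0 to 25 µm inside (1.07 to 1.40) and 0.521% at 100 to 150 µm inside (0.367 to 0.718). At 150 to 200 µm inside it was 0.792%, with a wide interval (0.477 to 1.23). DP-sig was densest near the border too, at 2.47% of bins 25 to 50 µm outside, 2.43% at 0 to 25 µm outside and 0.634% at 100 to 150 µm inside. CD4-2 went from 1.37% at 25 to 50 µm outside to 3.23% at 0 to 25 µm inside, and lay between 3.20% and 3.67% up to 200 µm inside. Mature CD4 was still higher deeper in, and DP-sig lower.

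**Figure D5:**
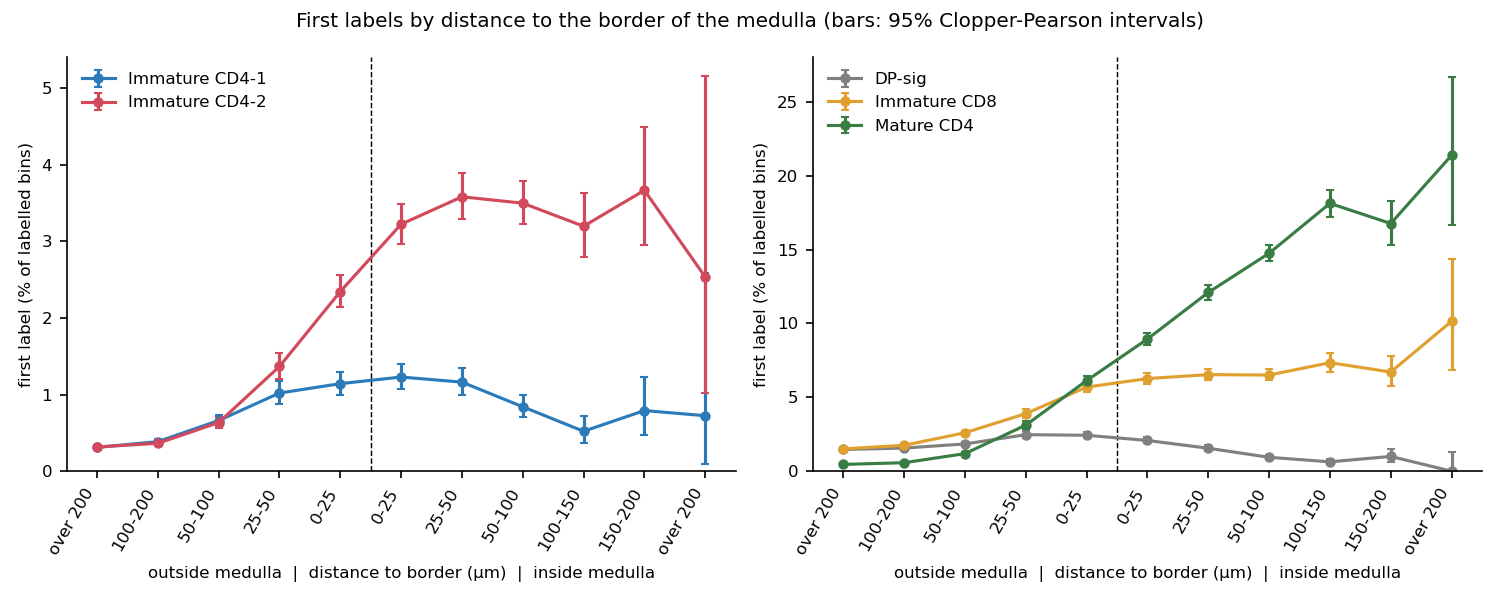
Share of labelled 10 µm bins (y axes, from 0) with each first label, by distance in µm from the border of the medulla (x axes; outside to the left of the dashed line, inside to the right), with exact 95% intervals. CD4-1 is highest close to the border, as is DP-sig. CD4-2 stays at about the same share inside the medulla, and the last point, over 200 µm inside, rests on 276 bins.

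Between the medullary regions the immature CD4 share of first labels differed little in all bins, but more in bins given 1 type. In all bins the ratio of mEFA to mECA was 1.07 over all labels (log-normal interval 0.991 to 1.16) and 0.896 over thymocyte labels alone (0.829 to 0.970). For CD4-1 the 2 ratios were 0.976 and 0.816, for CD4-2 1.10 and 0.921, and for Mature CD4 1.30 and 1.08. The direction for immature CD4 labels thus turned with the choice of labels counted, and over all labels the interval for CD4-1, 0.822 to 1.16, included 1 and overlapped that for CD4-2, 1.01 to 1.21. In segmented cell bins the ratios over all labels were 1.05 for CD4-1 and 1.0005 for CD4-2. In the medulla 12.7% of immature CD4 bins had a first label that the files mark as confident, against 30.4% for Mature CD4. A medullary epithelial type was the second label in 65.5% of immature CD4 bins there, beside 63.0% for DP-sig, 64.9% for Mature CD4 and 65.9% for Immature CD8. Among confident first labels the share was 0.230% in cortex, 1.91% in mECA and 2.20% in mEFA.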

How the data were processed

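UMI counts per gene and barcode, deposited by the authors as whole counts, were made with Cell Ranger 8.0.0 on mRatBN7.2, with Seurat 5.3.0 also named, per the submitters' processing notes. The roles of these tools, the annotation and the strand setting are not given in the sources used here, so genes that overlap on either strand may share reads. The percent of mitochondrial UMIs per cell, the cell labels, the counts per bin, the fraction given by RCTD to each label of a bin and the regions were used as deposited by the authors. The projected label was used where given and the initial cluster otherwise.

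UMIs were summed per label and divided by the label's total to give CPM, with exact Poisson intervals at 95%. Ratios have exact conditional binomial intervals, and counts under 3 were set to 3 for a ratio. Genes were measured at a mean of at least 50 CPM over both sides. PCR duplicates are removed by UMIs, and the intervals cover counting error only. With 1 sample per group no test across genes was possible, and no doublet caller was run. The 28 barcodes with no annotation were left out. They held 2 Cd4 UMIs.

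The members and the 21 gene lists (237 genes, 1 without a row in the files) were chosen with earlier results of these data known. Named genes are the markers, the genes of the lists and, per comparison, the 10 with the largest ratio in each direction among measured genes with a UMI in at least 10% of cells of the higher side, without those named only by an identifier. A gene named outside this rule is said to be so, and some genes that the rule names are not reported here. The ratio rule was tested on counts simulated from the summed levels of the 2 labels, with known folds, all past 2-fold, planted in some genes. The simulation held no spread between cells, so it says nothing on how such spread affects the calls. Of 34034 feature names 29433 matched a RefSeq symbol of GRCr8, whose table gave the promoters. Bin coordinates were converted at 0.5 µm per unit. Alternatives were filters on cells and on level, other totals, thinning, other bins and labels of the section and, chosen after seeing the data, centred ratios, single clusters, cells without Rag1, confident first labels and bins over 50 µm from the cortex. The tools were pandas 2.3.3, SciPy 1.17.1 and NumPy 2.4.6 under Python 3.11.15, figures came from matplotlib 3.10.9, and the seed was 7.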

Additional observations from a re-analysis of the deposited data

How the results depend on the processing

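Of 144 recomputed main values 88 stayed within range (a count within 1.5 times, a value within its interval). So did 849 of 946 values of single genes, and 6 of the 946 changed sign. The filters on level and the filter of 1000 UMIs could not change the ratio of a single gene. The values of single genes under these settings thus stayed by design, and the 849 includes them. Counts of genes past 2-fold higher and lower, in that order, moved by over 1.5 times with the filter on level and with thinning, which leaves fewer UMIs per gene, and between CD4-1 and CD4-2 also within Early SP. At a mean of at least 20 CPM they were 155 and 253 against DP-sig, 164 and 147 against Mature CD4, 60 and 24 against Immature CD8, and 111 and 128 for CD4-1 against CD4-2. At 100 CPM they were 22 and 79, 37 and 36, 13 and 1, and 14 and 15. With cells thinned to 1000 UMIs they were 101 and 253, 291 and 133, 89 and 63, and 291 and 216. With totals that leave out mitochondrial, ribosomal and haemoglobin genes, 98 were higher than in DP-sig, 130 lower than in Mature CD4, 32 higher and 11 lower than in Immature CD8, and 80 higher in CD4-2 than in CD4-1. Centring gave 37 higher than in Mature CD4 and turned the log2 ratio of Cd4 there to -0.0254. Between CD4-1 and CD4-2, 144 and 150 genes were past 2-fold within Early SP, where CD4-2 had 20 cells, and 59 were higher in CD4-1 within Mature SP. The log2 ratio of CD4-1 over CD4-2 changed sign for Cd40lg in Early SP (0.48) and Mature SP (0.19), for Zbtb7b in Mature SP (0.34) and after thinning (0.0463), and for Slc4a4 in Early SP (0.15). The cause was not tested.

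In the section, the immature CD4 share in capsular, cortex, mECA and mEFA bins was 0.643%, 1.10%, 6.34% and 5.25% with a label in any place, and 0.788%, 1.67%, 5.14% and 5.23% in segmented cell bins. With confident first labels it was 0.0916%, 0.230%, 1.91% and 2.20%. With 1 type per bin it was 0.858%, 7.53% and 5.08% in the last 3 regions, the sum of weights gave 4.75% in mECA and 4.32% in mEFA, and bins at or above the median depth gave 0.305% in capsular. The ratio of mEFA to mECA over all labels was 0.829 with a label in any place, 0.675 with 1 type per bin and 0.910 with weights. Over thymocyte labels it was 0.674 with 1 type per bin and 0.699 with confident first labels. Every setting run kept the share in both medullary regions above that in cortex.

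No paired analysis was possible because there is 1 sample a group. Labels of the initial cluster alone were not run, since no initial cluster is named immature CD4. The filter of 1000 UMIs removed no member, so it says nothing on stability. Depth limits genes below the filter on level: 3 UMIs of Cd4 would be 3.91 CPM in CD4-1 and 3.68 CPM in CD4-2.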

Other observations

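Some genes known from other settings had their highest level among the 21 labels in immature CD4 cells. Itgb3, an integrin chain known from platelets, stood at 74.8 CPM in CD4-2, with 42.3 in the next label, B+myeloid. Inpp4b, a lipid phosphatase, was at 1555 CPM in CD4-1 and 1472 in CD4-2, the top 2 labels, and Lef1, a partner of Wnt signals that also acts in CD4 lineage choice, at 2592 and 2423 CPM. Junb was at 1069 and 919 CPM, again the top 2 labels. Fyn, a kinase of the TCR pathway, was highest in CD4-1 at 580 CPM.

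Cd24, whose protein is widely used as a marker of immature thymocytes, had 0 UMIs in the 236 cells and 1 in DP-sig. Counts under this symbol therefore say nothing on maturity here.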
